A study of Mus musculus with 6 samples.

Results

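The 38 genes described here encode the contractile and metabolic machinery of the striated muscle fibre. They were chosen by name, with earlier results of these data known. Each was found as a Gene Symbol in the deposited table, so that 38 of its 17030 genes are members. They comprise 9 thin filament genes, 8 thick filament genes, titin with 2 M-band genes, 7 Z-disc genes, 7 calcium handling genes and 4 fibre enzymes. By the fibre type each is usually assigned to, 15 were classed as fast, 5 as slow and 18 as both. A class does not mean that the other fibre type lacks the gene's product.

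RNA came from mononuclear cells of skeletal muscle of male C57BL/B6 mice that all bore Lewis lung carcinoma (LLC), a transplanted mouse tumour that causes muscle wasting. In the Pax7-CreERT group (Pax7 Cre ErT x IKKbfl/fl, 3 libraries) both floxed copies of IKKb, a kinase upstream of canonical NF-kB, could be removed by a tamoxifen-dependent Cre driven from Pax7, the transcription factor gene of muscle satellite cells. The control group (IKKbfl/fl, 3 libraries) carried the same floxed alleles without Cre. Both groups received tamoxifen on days 10 to 14 after the tumour cells were injected. The ages, the dose and whether a library came from 1 mouse are not stated in the labels, so p-values measure the spread between libraries. No group carried Cre without floxed alleles, so Cre and deletion cannot be told apart.

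A sarcomere is built of interdigitating actin-based thin and myosin-based thick filaments, anchored at the Z-disc and the M-band and kept in register by titin and nebulin. A voltage sensor in the transverse tubule opens the channel that releases calcium from the sarcoplasmic reticulum, calcium binds troponin on the thin filament, and a calcium pump ends the contraction. Fast and slow fibres use different isoforms of many of these proteins. Mature fibres are multinucleated and are largely removed when mononuclear cells are prepared, whereas the genes are switched on when satellite cells differentiate. Because the samples are bulk RNA, fewer cells of a type and less RNA per cell cannot be told apart.

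Values are CPM (reads assigned to a gene in each 1000000 of the library). Estimated depths were 4913000 to 13355000 reads in the Pax7-CreERT libraries and 4054000 to 7423000 reads in the controls, at which a gene at 10 CPM had a counting SD of 8.7% to 15.7%. Ikbkb, which encodes IKKb, lay between 48.4 and 52.7 CPM in Pax7-CreERT and between 48.8 and 57.4 CPM in control libraries, a difference within the spread, and single exons were not analysed here. Defining markers of the preparation were present in every library, with the endothelial gene Pecam1 at 1943 to 2244 CPM in Pax7-CreERT and 2073 to 2645 CPM in control libraries, and the satellite cell gene Pax7 at 14.4 to 19.3 CPM in Pax7-CreERT and 10.9 to 21.6 CPM in control libraries. Control replicate 3 stood apart, with haemoglobin genes at 12.63% of its CPM against 1.84% to 4.83% in the other 5 libraries, and it was the shallowest.

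The members were a small part of each library and a larger part in the Pax7-CreERT libraries. Summed over all 38 genes they came to 4245, 2917 and 2955 CPM in Pax7-CreERT replicates 1, 2 and 3, against 2111, 2386 and 1512 CPM in control replicates 1, 2 and 3. The lowest Pax7-CreERT sum therefore lay above the highest control sum, and the members held 0.424, 0.292 and 0.295 percent of the Pax7-CreERT libraries, against 0.211, 0.239 and 0.151 percent of the controls. Titin alone made up 37.7% to 48.3% of the sum in Pax7-CreERT libraries and 41.9% to 47.0% in controls. Without it the sums were 2645, 1586 and 1529 CPM in the Pax7-CreERT libraries, against 1118, 1322 and 879 CPM in the controls, and the groups still did not overlap. No member was at 0 in any library.

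Over the 38 members, 37 had a higher mean in the Pax7-CreERT libraries, with a median ratio of the means of 1.76. The exception was Tnnc1, slow troponin C, which was the only member below the filter of 1 CPM in 3 libraries. Among the 37 tested members the median log2 fold change was 0.73 on the log2(CPM + 1) scale, where the median of all 14763 tested genes was 0.09. A log2 fold change above 0 was found in all 37, while 68.0% of all tested genes had one. In 22 members all 3 Pax7-CreERT values exceeded all 3 control values, which was the case for 8.69% of all tested genes. None had all 3 values below the controls, where 2.28% of all tested genes did. Since the members were chosen with earlier results of these data known, these shares describe them and are no independent test.

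With limma, 0 of the 37 members passed an adjusted p under 0.05, a call that 0.00677% of all tested genes reached, and their adjusted p-values lay between 0.891 and 0.904. At an unadjusted p under 0.05, 28 members were higher and 0 lower, where 4.58% of all tested genes were higher and 0.942% lower. The members shared their pattern over the libraries and are not 28 separate observations. Without Pax7-CreERT replicate 1, 13 members were higher at an unadjusted p under 0.05, where 2.18% of all tested genes were, and the median log2 fold change was 0.49. Of the tested members, 2 passed the filter with fewer than 3 control libraries at 1 CPM, namely Tnni1 and Tnnt1. Neither is among the 28, and the median of the other 35 was 0.77.

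The libraries were not equal in this. Pax7-CreERT replicate 1 held the highest value for 37 of the 38 members, and control replicate 3 held the lowest for 32 of them. Over all tested genes these 2 libraries held the highest value for 20.4% and the lowest for 39.8%. Pax7-CreERT replicates 2 and 3 each exceeded all 3 controls for 29 of the 38 members. With Pax7-CreERT replicate 1 left out, the median ratio of means was 1.41. With control replicate 3 left out too it was 1.28, and 36 of 38 members still had the higher mean in the Pax7-CreERT group. For the counts of 29 and 36 the share of all tested genes was not computed, so they describe the members only. The heat map of library values shows the order of the libraries.

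**Figure D1:**
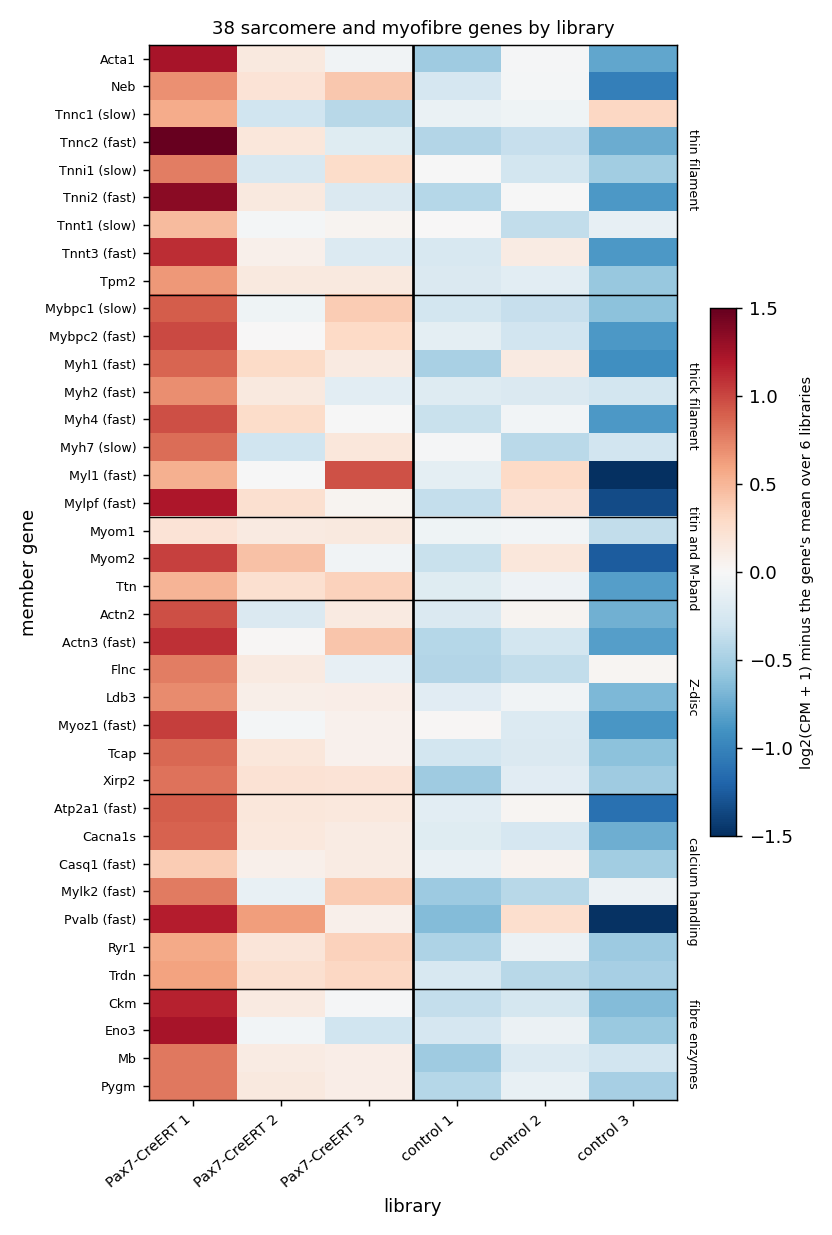
Heat map of log2(CPM + 1) minus each gene's mean over the 6 libraries, with the 38 members in rows by class and the libraries in columns, Pax7-CreERT left of the line and controls right of it. Red is above and blue below the gene's mean; replicate 1 of Pax7-CreERT is the reddest column and control replicate 3 the bluest, and colours are capped at 1.5 in either direction.

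Thin filaments carry the calcium switch of contraction. Acta1 encodes skeletal alpha-actin, the backbone of the filament. It measured 407, 189 and 165 CPM in Pax7-CreERT replicates 1, 2 and 3, against 118, 169.9 and 99.2 CPM in control replicates 1, 2 and 3. Replicate 1 alone stood far above the others, and replicate 3 of Pax7-CreERT lay below control replicate 2, so the groups overlapped. The means were 254 ± 133 CPM in Pax7-CreERT and 129 ± 36.6 CPM in control libraries (SD, n = 3 each). The limma result was a log2 fold change of 0.88 (95% interval 0.18 to 1.59, SE 0.32, unadjusted p = 0.0191, adjusted p = 0.891).

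Neb, which encodes nebulin, a giant protein that spans the thin filament, measured 96.7, 68.96 and 78.97 CPM in Pax7-CreERT replicates 1, 2 and 3, against 49.98, 58.6 and 28.9 CPM in control replicates 1, 2 and 3. Here the groups did not overlap and replicate 1 stood less far from its group, with a log2 fold change of 0.86 (SE 0.24) in limma. Tpm2, at chr4:43513726-43523554 of mm10, encodes beta-tropomyosin, which covers the myosin-binding sites of actin and is also made by smooth muscle. It measured 311, 220.3 and 219.8 CPM in Pax7-CreERT replicates 1, 2 and 3, against 171, 178 and 133 CPM in control replicates 1, 2 and 3. The groups did not overlap, and the means were 250.4 ± 52.6 CPM in Pax7-CreERT and 161 ± 23.7 CPM in control libraries (SD, n = 3 each). In limma Tpm2 had a log2 fold change of 0.63 (95% interval 0.24 to 1.02, SE 0.18, unadjusted p = 0.00509, adjusted p = 0.891).

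The fast troponins stood at lower CPM. Tnnc2, the fast calcium-binding subunit, measured 29.3, 10.7 and 8.14 CPM in Pax7-CreERT replicates 1, 2 and 3, against 6.69, 7.14 and 5.18 CPM in control replicates 1, 2 and 3. All Pax7-CreERT values were above the controls, and replicate 1 was 3.11 times the mean of replicates 2 and 3, the widest such gap among the 37 tested members. Tnni2, the fast inhibitory subunit, measured 33.3, 13.9 and 10.6 CPM in the Pax7-CreERT libraries, against 9.03, 12.4 and 6.41 CPM in the controls. Tnnt3, the fast tropomyosin-binding subunit, measured 20.2, 9.36 and 7.53 CPM in the Pax7-CreERT libraries, against 7.36, 9.70 and 4.44 CPM in the controls. For Tnni2, replicate 3 of Pax7-CreERT lay within the range of the controls, and for Tnnt3 both replicates 2 and 3 did.

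The slow troponins were close to the limit of counting. Tnnt1, slow troponin T, measured 1.997, 1.12 and 1.22 CPM in the Pax7-CreERT libraries, against 1.17, 0.674 and 0.987 CPM in the controls, from an estimated 6 to 19 reads in Pax7-CreERT and 4 to 7 reads in control libraries. Tnni1, slow troponin I, measured 3.26, 1.12 and 2.04 CPM in the Pax7-CreERT libraries, against 1.504, 1.08 and 0.7401 CPM in the controls. Tnnc1, slow and cardiac troponin C, measured 1.37, 0.299 and 0.203 CPM in the Pax7-CreERT libraries, against 0.501, 0.539 and 0.987 CPM in the controls, from an estimated 1 to 13 reads in Pax7-CreERT and 3 to 4 reads in control libraries. No difference in Tnnc1 was detectable at this depth.

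Thick filaments are polymers of myosin, and the heavy chain isoform sets the speed of a fibre. The 3 fast adult heavy chain genes lie side by side on the plus strand of chromosome 11 in the order Myh2 (IIa), Myh1 (IIx) and Myh4 (IIb), at chr11:67171027-67197517, chr11:67200102-67224575 and chr11:67237812-67260447 of mm10. Since they were neighbours with the same direction in these libraries, their promoter windows are shown with that of Acta1 and that of titin, each covering 250 bases before to 50 bases after the transcription start in RefSeq (GRCm38.p6), 5′ to 3′ on the gene's strand. Capitals mark matches to CANNTG (the E-box bound by MyoD-family factors), to the MEF2 motif and to the CArG box of serum response factor, searched on both strands, and the Myh2 window holds no match to these letters.
Myh2 (chr11:67170777-67171076, plus strand): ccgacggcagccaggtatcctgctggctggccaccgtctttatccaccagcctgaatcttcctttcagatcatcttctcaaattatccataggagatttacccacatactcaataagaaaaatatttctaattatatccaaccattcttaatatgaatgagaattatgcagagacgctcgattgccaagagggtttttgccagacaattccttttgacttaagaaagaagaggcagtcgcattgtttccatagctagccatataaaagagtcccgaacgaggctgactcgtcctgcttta
Myh1 (chr11:67199852-67200151, plus strand): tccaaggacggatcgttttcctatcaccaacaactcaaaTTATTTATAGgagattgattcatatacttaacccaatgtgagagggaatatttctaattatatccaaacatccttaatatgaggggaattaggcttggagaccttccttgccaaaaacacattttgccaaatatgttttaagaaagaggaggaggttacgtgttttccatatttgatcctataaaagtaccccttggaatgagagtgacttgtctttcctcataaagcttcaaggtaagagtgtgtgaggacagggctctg
Myh4 (chr11:67237562-67237861, plus strand): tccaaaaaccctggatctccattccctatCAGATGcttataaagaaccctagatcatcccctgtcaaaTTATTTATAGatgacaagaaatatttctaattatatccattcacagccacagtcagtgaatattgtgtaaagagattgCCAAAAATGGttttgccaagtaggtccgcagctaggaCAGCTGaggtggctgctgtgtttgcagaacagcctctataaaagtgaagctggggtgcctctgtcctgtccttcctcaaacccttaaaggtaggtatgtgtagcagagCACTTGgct
Acta1 (chr8:123894726-123895025, minus strand): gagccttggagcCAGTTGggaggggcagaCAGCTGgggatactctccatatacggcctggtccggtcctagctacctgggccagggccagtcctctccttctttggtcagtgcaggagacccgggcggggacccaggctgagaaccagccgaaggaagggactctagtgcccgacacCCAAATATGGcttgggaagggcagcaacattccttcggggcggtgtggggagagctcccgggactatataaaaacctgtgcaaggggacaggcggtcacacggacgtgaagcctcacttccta
Ttn (chr2:76982498-76982797, minus strand): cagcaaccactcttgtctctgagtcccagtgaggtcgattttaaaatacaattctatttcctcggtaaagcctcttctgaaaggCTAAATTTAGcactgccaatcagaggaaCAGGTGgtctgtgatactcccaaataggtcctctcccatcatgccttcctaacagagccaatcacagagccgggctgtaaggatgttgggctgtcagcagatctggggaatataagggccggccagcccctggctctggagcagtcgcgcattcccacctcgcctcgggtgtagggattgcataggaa
The windows of the 3 myosin genes share the run aatatttctaattatatcca of 20 bases, which occurred in 3 of all 32851 RefSeq promoter windows. The MEF2 matches began 211 bases before the start in Myh1, 182 in Myh4 and 166 in Ttn.

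Of the members, 29 had a window in that table, with 36 windows among them. The 6-letter E-box form CAGCTG was present in 44.4% of the member windows and in 16.3% of all windows, and the looser CANNTG, which contains it, in 77.8% and 72.3%. The MEF2 motif was present in 13.9% of member windows and 3.19% of all windows. The CArG box was present in 13.9% and 1.63%. CATTCC, the MCAT element read by TEAD factors, was present in 33.3% and 14.7%, and TATAAA on the gene's strand in 13.9% and 8.32%. Some genes had overlapping windows, so a site could count more than once, as the CArG box of Ldb3 did. By gene, of 29, CAGCTG was present in 14, CANNTG in 24, MEF2 in 5, CArG in 4, CATTCC in 11 and TATAAA in 5. Such matches describe letters in the window and do not show that a factor was bound.

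Myh4, the heavy chain of the fastest mouse fibres, measured 237, 146 and 120.3 CPM in Pax7-CreERT replicates 1, 2 and 3, against 95.9, 118 and 66.1 CPM in control replicates 1, 2 and 3. Replicate 3 of Pax7-CreERT lay just above the highest control, with a log2 fold change of 0.82 (SE 0.26) in limma. Myh1 measured 73.9, 49.1 and 43.9 CPM in the Pax7-CreERT libraries, against 28.3, 43.9 and 20.6 CPM in the controls, and its lowest Pax7-CreERT and highest control values were nearly equal. Myh1 had fractional reads in all 6 libraries, and how reads shared by these closely similar genes were counted is not stated, so values within the cluster are uncertain. Myh2 measured 33.5, 22.5 and 18.1 CPM in the Pax7-CreERT libraries, against 17.6, 17.4 and 16.5 CPM in the controls. The controls of Myh2 varied by only 0.548 CPM (SD, n = 3). Myh7, the slow heavy chain, measured 8.72, 3.42 and 5.09 CPM in the Pax7-CreERT libraries, against 4.35, 3.099 and 3.45 CPM in the controls, with overlapping groups.

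Among the partners of the heavy chain, Mylpf, the fast regulatory light chain, measured 16.4, 7.86 and 6.72 CPM in the Pax7-CreERT libraries, against 4.85, 7.68 and 1.97 CPM in the controls. Myl1, the fast essential light chain, measured 23.5, 15.9 and 31.95 CPM in the Pax7-CreERT libraries, against 14.4, 19.9 and 4.44 CPM in the controls, and was the 1 member whose highest value was not in replicate 1 of Pax7-CreERT. Both light chains overlapped between groups and were lowest in control replicate 3. Mybpc1 and Mybpc2 encode the slow and fast forms of myosin-binding protein C, which tethers the thick filament. Mybpc1 measured 16.8, 8.09 and 11.4 CPM in the Pax7-CreERT libraries, against 6.85, 6.47 and 5.18 CPM in the controls, and Mybpc2 measured 21.9, 10.6 and 13.2 CPM in the Pax7-CreERT libraries, against 9.38, 8.398 and 5.34 CPM in the controls. Neither overlapped between groups, with log2 fold changes of 0.82 and 0.87.

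Titin runs from the Z-disc to the M-band, where myomesin and M-protein crosslink the thick filaments. Ttn measured 1599.9, 1331 and 1426 CPM in Pax7-CreERT replicates 1, 2 and 3, against 992, 1065 and 633 CPM in control replicates 1, 2 and 3. All Pax7-CreERT values exceeded all controls, control replicate 3 was the lowest by far, and the limma result was a log2 fold change of 0.73 (SE 0.22). Myom1, myomesin, measured 82.8, 78.4 and 78.97 CPM in the Pax7-CreERT libraries, against 68.2, 69.4 and 55.01 CPM in the controls. Its Pax7-CreERT values differed by only 2.42 CPM (SD, n = 3), and its log2 fold change of 0.32 was the smallest of the 37. Myom2, the M-protein gene, measured 12.2, 7.79 and 5.29 CPM in the Pax7-CreERT libraries, against 4.18, 6.33 and 1.73 CPM in the controls and overlapped.

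The Z-disc joins neighbouring sarcomeres and senses strain. Xirp2, at chr2:67446002-67526606 of mm10, encodes an actin-binding Xin repeat protein and had the smallest p of all members. It measured 169, 111 and 111 CPM in Pax7-CreERT replicates 1, 2 and 3, against 66.03, 85.1 and 65.6 CPM in control replicates 1, 2 and 3. The groups did not overlap, with means of 130.4 ± 33.5 CPM in Pax7-CreERT and 72.3 ± 11.2 CPM in control libraries (SD, n = 3 each). In limma this was a log2 fold change of 0.82 (95% interval 0.41 to 1.24, SE 0.19, unadjusted p = 0.00139, adjusted p = 0.891). The exact 2-sided permutation test gave p = 0.1, below which 3 libraries against 3 cannot go.

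Actn3 (at chr19:4861216-4877909) encodes the alpha-actinin of fast fibres, which crosslinks actin at the Z-disc, and measured 52.4, 24.3 and 32.4 CPM in Pax7-CreERT replicates 1, 2 and 3, against 17.6, 19.7 and 13.1 CPM in control replicates 1, 2 and 3. The lowest Pax7-CreERT value was above the highest control, with a log2 fold change of 1.02 (95% interval 0.43 to 1.61, SE 0.26, unadjusted p = 0.00317, adjusted p = 0.891) in limma. Actn2, the actinin of all striated fibres, measured 14.2, 5.69 and 7.53 CPM in the Pax7-CreERT libraries, against 5.68, 7.01 and 3.70 CPM in the controls, and its groups overlapped. Tcap encodes telethonin, the cap of titin, and measured 92.8, 57.4 and 52.9 CPM in the Pax7-CreERT libraries, against 41.8, 43.5 and 32.8 CPM in the controls, without overlap. Ldb3, the PDZ and LIM protein ZASP, had means of 21.2 ± 5.83 CPM in Pax7-CreERT and 13.6 ± 3.11 CPM in control libraries (SD, n = 3 each), also without overlap.

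Myoz1, a calcineurin-binding protein of fast fibres, measured 21.3, 9.66 and 10.4 CPM in the Pax7-CreERT libraries, against 10.03, 8.49 and 4.93 CPM in the controls. Flnc, the actin crosslinker filamin C, had means of 50.4 ± 16.8 CPM in Pax7-CreERT and 34.1 ± 6.45 CPM in control libraries (SD, n = 3 each). The groups overlapped in both of these genes. For Flnc the control that overlapped was replicate 3, at 41.4 CPM the highest control.

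**Figure D2:**
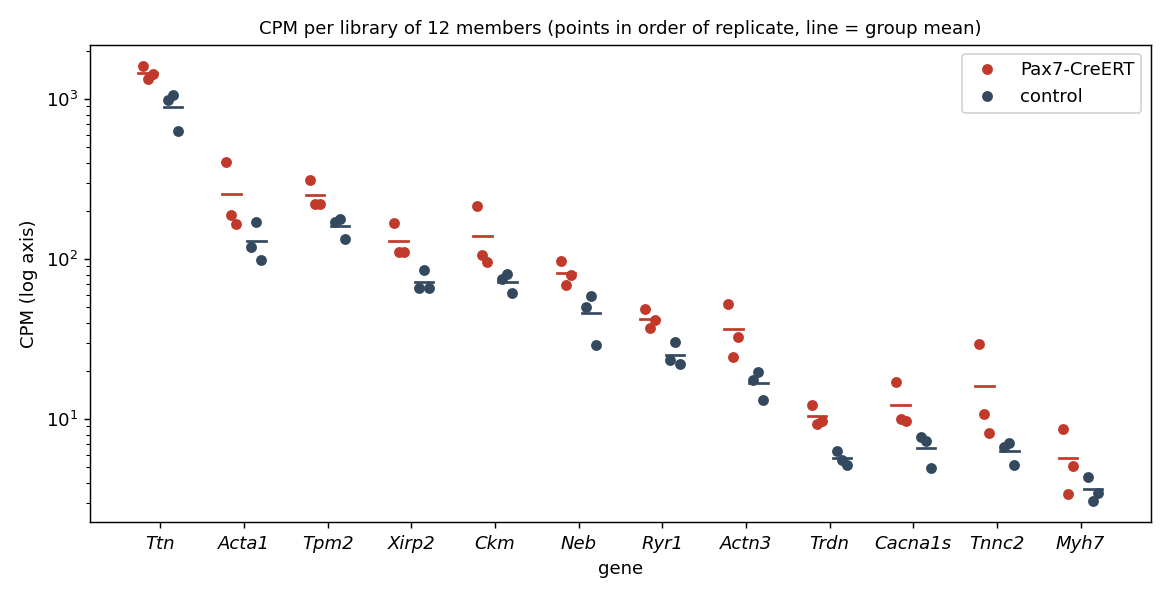
CPM per library on a log axis for 12 members, with the Pax7-CreERT libraries left and controls right of each gene, points in order of replicate and a line at the group mean. In Ttn, Tpm2, Xirp2, Ckm, Neb, Ryr1, Actn3, Trdn, Cacna1s and Tnnc2 the groups do not overlap, while in Acta1 and Myh7 they do. The 12 are a selection with more separation than the whole: of all 38 members, 22 do not overlap and 16 do.

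Calcium handling genes couple the electrical signal to contraction. Ryr1, at chr7:29003340-29125151 of mm10, encodes the calcium release channel and measured 48.7, 37.1 and 41.6 CPM in Pax7-CreERT replicates 1, 2 and 3, against 23.4, 30.5 and 22.04 CPM in control replicates 1, 2 and 3. The groups did not overlap, with means of 42.5 ± 5.84 CPM in Pax7-CreERT and 25.3 ± 4.57 CPM in control libraries (SD, n = 3 each). In limma this was a log2 fold change of 0.73 (95% interval 0.35 to 1.11, SE 0.17, unadjusted p = 0.00168, adjusted p = 0.891). Cacna1s, the voltage sensor that opens this channel, measured 17.1, 9.96 and 9.77 CPM in Pax7-CreERT replicates 1, 2 and 3, against 7.69, 7.27 and 4.93 CPM in control replicates 1, 2 and 3. It too was without overlap, with a log2 fold change of 0.78 (SE 0.26). Trdn, at chr10:33083483-33476709, encodes triadin, which holds calsequestrin at the channel, and measured 12.2, 9.28 and 9.77 CPM in Pax7-CreERT replicates 1, 2 and 3, against 6.35, 5.52 and 5.18 CPM in control replicates 1, 2 and 3. Its 3 Pax7-CreERT values were close together and apart from the controls, with a log2 fold change of 0.77 (95% interval 0.33 to 1.21, SE 0.20, unadjusted p = 0.00316, adjusted p = 0.891) in limma.

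Casq1, the calcium-binding protein of the fast sarcoplasmic reticulum, measured 32.3, 25.9 and 26.9 CPM in the Pax7-CreERT libraries, against 22.7, 25.6 and 16.8 CPM in the controls. Its lowest Pax7-CreERT value was only just above its highest control value. Atp2a1, the fast calcium pump, measured 170.4, 102 and 101 CPM in the Pax7-CreERT libraries, against 80.7, 92.3 and 40.95 CPM in the controls, without overlap and lowest in control replicate 3. Pvalb, the cytosolic calcium buffer parvalbumin of fast fibres, measured 61.7, 41.8 and 28.1 CPM in the Pax7-CreERT libraries, against 16.7, 32.1 and 8.88 CPM in the controls. It had the largest log2 fold change among the 37, 1.25 (SE 0.40), with overlapping groups. Mylk2, the calcium-dependent kinase of the regulatory light chain, measured 20.7, 10.7 and 15.5 CPM in the Pax7-CreERT libraries, against 7.69, 8.49 and 10.9 CPM in the controls, with control replicate 3 just above Pax7-CreERT replicate 2.

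Of the fibre enzymes, Ckm encodes muscle creatine kinase, which buffers ATP, and measured 215, 106 and 95.2 CPM in Pax7-CreERT replicates 1, 2 and 3, against 75.1, 80.2 and 61.2 CPM in control replicates 1, 2 and 3. Replicate 1 of Pax7-CreERT was 2.14 times the mean of replicates 2 and 3, and the groups did not overlap. Mb, the oxygen-binding myoglobin, measured 83.9, 52.3 and 51.5 CPM in the Pax7-CreERT libraries, against 32.8, 41.4 and 39.2 CPM in the controls, and Pygm, the phosphorylase that breaks down glycogen, measured 62.4, 39.5 and 38.1 CPM in the Pax7-CreERT libraries, against 26.2, 32.9 and 24.9 CPM in the controls. In both all Pax7-CreERT values were above the controls. Eno3, muscle enolase, measured 42.5, 17.0 and 14.04 CPM in the Pax7-CreERT libraries, against 14.5, 16.4 and 11.6 CPM in the controls. Beyond replicate 1 of Pax7-CreERT, its values overlapped.

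**Figure D3:**
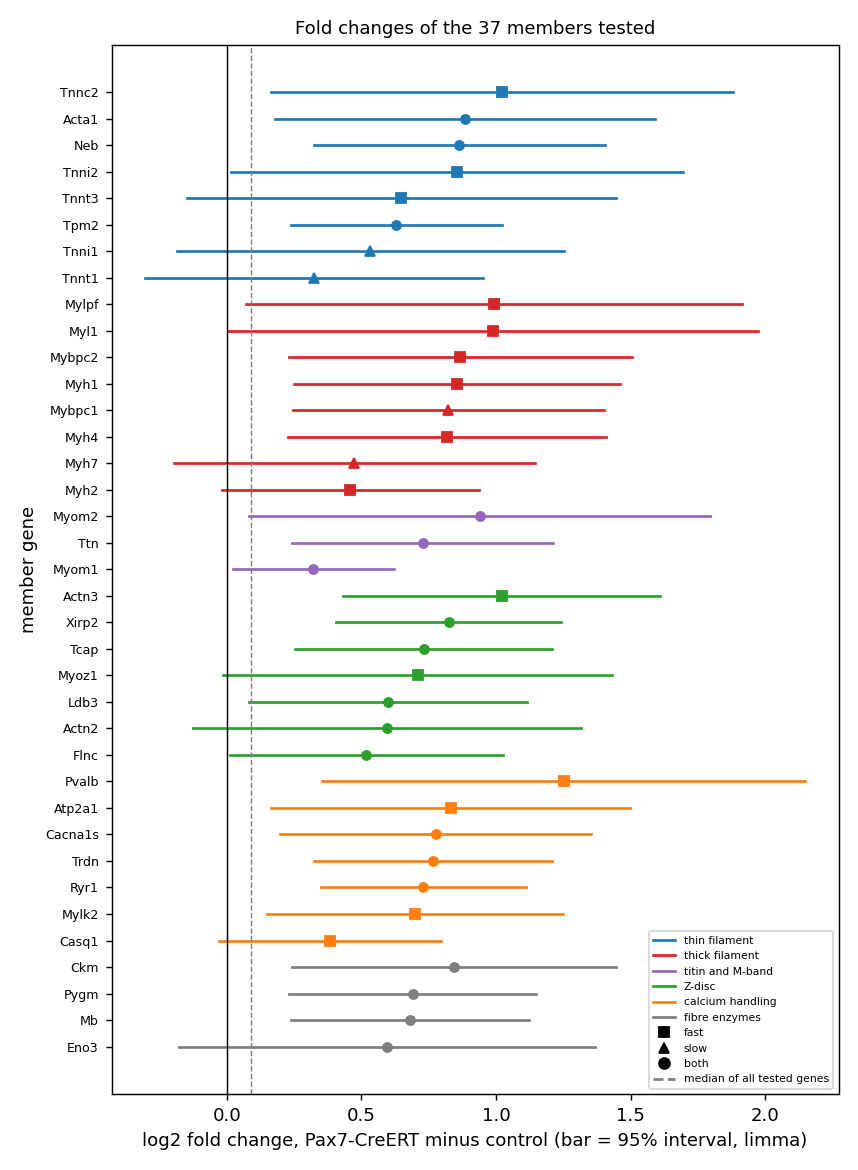
Log2 fold change (Pax7-CreERT minus control, limma on log2(CPM + 1)) with its 95% interval for the 37 tested members, coloured by class and shaped by fibre type, with a dashed line at the median of all tested genes, 0.09. All points lie between 0.32 and 1.25, and 28 of the 37 intervals lie wholly above 0.

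The median log2 fold change was 0.75 for the 8 tested thin filament genes, 0.84 for 8 thick filament genes, 0.73 for titin and the 2 M-band genes, 0.71 for 7 Z-disc genes, 0.77 for 7 calcium handling genes and 0.69 for 4 fibre enzymes. By fibre type it was 0.86 for 15 fast genes, 0.50 for the 4 tested slow genes and 0.73 for 18 genes of both. The slow median depended on the pseudocount, at 0.69 with 0.1 (fast 0.88) and 0.25 with 5 (fast 0.67), and 2 of its 4 genes, Tnni1 and Tnnt1, passed the filter only through the Pax7-CreERT libraries. At an unadjusted p under 0.05 in limma, where 4.58% of all tested genes were higher, 5 of 8 thin filament, 6 of 8 thick filament, 3 of 3 titin and M-band, 5 of 7 Z-disc, 6 of 7 calcium handling and 3 of 4 enzyme genes were higher. The counts were 11 of 15 for fast genes, 1 of 4 for slow genes (Mybpc1) and 16 of 18 for genes of both. Differences between the classes were not tested.

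Levels of different genes can be compared only per length, and were divided by exonic length (all exons of a gene merged, GENCODE M21, the same build). Acta1 was first, at 165 ± 86.5 CPM per kb in Pax7-CreERT and 83.9 ± 23.7 CPM per kb in control libraries (SD, n = 3 each). Tpm2 followed at 86.1 ± 18.1 CPM per kb in Pax7-CreERT and 55.2 ± 8.16 CPM per kb in control libraries, and Tcap at 71.3 ± 23.02 CPM per kb in Pax7-CreERT and 41.4 ± 6.05 CPM per kb in control libraries. In controls, Mb and Ckm came next at 25.4 ± 3.004 and 24.8 ± 3.38 CPM per kb, which did not differ beyond their spread. Ttn, the first by CPM, was 15th per kb in Pax7-CreERT and 13th in control libraries, at 12.4 ± 1.17 CPM per kb in Pax7-CreERT and 7.67 ± 1.98 CPM per kb in control libraries, over an exonic length of 116.8 kb. Ryr1 and Cacna1s were near the low end, at 1.94 and 1.88 CPM per kb in Pax7-CreERT and 1.16 and 1.01 CPM per kb in control libraries. The slow genes Myh7, Tnnt1, Tnni1 and Tnnc1 all stayed below 0.67 CPM per kb on average in both groups.

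Fast and slow isoforms were set against each other within a library. The log2 of (fast CPM + 1)/(slow CPM + 1) was taken for 10 pairs, 5 of them with a slow partner outside the 38 members. Where the slow partner was near or below 1 CPM, as for the troponins and Myl2, the added 1 made up much of the denominator, so the ratio then largely followed the fast gene's CPM. For Myh4 over Myh7 it was 4.61, 5.06 and 4.32 in the Pax7-CreERT libraries, against 4.18, 4.86 and 3.91 in the controls. For Tnnt3 over Tnnt1 it was 2.82, 2.29 and 1.94 in the Pax7-CreERT libraries, against 1.95, 2.68 and 1.45 in the controls, and for Tnni2 over Tnni1 3.01, 2.81 and 1.93 in the Pax7-CreERT libraries, against 2.001, 2.69 and 2.09 in the controls. The fast CPM exceeded the slow CPM in every library for these pairs, and the groups overlapped. Per length, Myh4 stood at 27.9 CPM per kb in Pax7-CreERT and 15.5 CPM per kb in control libraries, and Myh7 at 0.666 CPM per kb in Pax7-CreERT and 0.421 CPM per kb in control libraries. For Mybpc2 over Mybpc1 the ratio was 0.36, 0.35 and 0.20 in the Pax7-CreERT libraries, against 0.40, 0.33 and 0.04 in the controls, close to even in CPM throughout.

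Tnnc2 over Tnnc1 was the 1 pair of 10 whose groups did not overlap, at 3.68, 3.17 and 2.92 in the Pax7-CreERT libraries, against 2.36, 2.40 and 1.64 in the controls. The difference was 1.13 (exact 2-sided permutation p = 0.1, and 0.714 adjusted over the 10 pairs), and it rests on 1 to 13 estimated reads of Tnnc1 per library. With a pseudocount of 0.1 it was 1.52 and with 5 it was 0.78. The mean ratio was higher in Pax7-CreERT libraries for 9 of the 10 pairs and lower for Myl1 over Myl3, whose difference of -0.07 was -0.77 with a pseudocount of 0.1 and 0.34 with 5. Without Pax7-CreERT replicate 1 and control replicate 3, it was higher for 5 of 10.

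In the calcium store the slow or cardiac partner had the higher CPM. For Atp2a1 over Atp2a2, the pump of slow fibres that non-muscle cells make too, the log2 ratio was -0.42, -1.27 and -1.16 in the Pax7-CreERT libraries, against -1.31, -1.14 and -2.21 in the controls. For Casq1 over Casq2, the calsequestrin of heart, it was -2.22, -2.82 and -2.36 in the Pax7-CreERT libraries, against -2.79, -2.23 and -2.75 in the controls. Casq2 measured 154, 188 and 142 CPM in Pax7-CreERT replicates 1, 2 and 3. It was highest in replicate 2, unlike any member, and which cells made Atp2a2 and Casq2 here was not tested. Per length, Atp2a1 was at 49.0, 29.3 and 29.1 CPM per kb in the Pax7-CreERT libraries, against 23.2, 26.5 and 11.8 CPM per kb in the controls. Atp2a2 was at 37.6, 40.6 and 37.3 CPM per kb in the Pax7-CreERT libraries, against 33.1, 33.6 and 31.8 CPM per kb in the controls, so Atp2a1 was the higher in Pax7-CreERT replicate 1 and Atp2a2 in the other 5 libraries. Casq2 was at 59.0 CPM per kb in Pax7-CreERT and 49.3 CPM per kb in control libraries, while Casq1 was at 14.5 CPM per kb in Pax7-CreERT and 11.1 CPM per kb in control libraries. The remaining pairs, Mylpf over Myl2 and Myoz1 over Myoz2, overlapped between groups. The 10 differences were from -0.07 to 1.13.

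**Figure D4:**
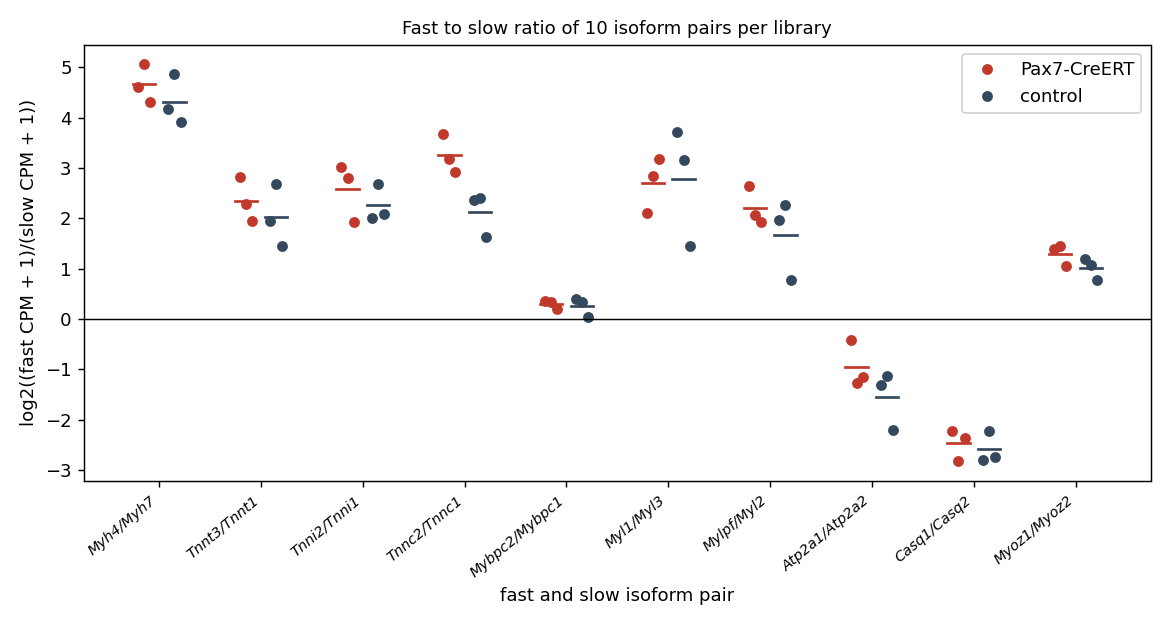
Log2 ratio of fast to slow isoform, log2((fast CPM + 1)/(slow CPM + 1)), per library for 10 pairs, with Pax7-CreERT left and control right and a line at the group mean. Ratios lie above 0 for 8 pairs and below 0 for Atp2a1/Atp2a2 and Casq1/Casq2, and only Tnnc2/Tnnc1 shows groups without overlap.

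The excess of Pax7-CreERT replicate 1 was uneven over the members. On the log2(CPM + 1) scale it exceeded the mean of replicates 2 and 3 by 1.55 for Tnnc2, 1.40 for Eno3, 1.39 for Tnni2 and 1.20 for Acta1. For Ttn the excess was 0.22, for Ryr1 0.30, for Neb 0.39, for Myom1 0.07 and for Myl1 0.06. The median was 0.88 for the 17 tested members with an exonic length under 3 kb and 0.64 for the 14 of 6 kb or more. Across the 37 members Pearson's r with log2 length was -0.56 and Spearman's rho -0.51, against 0.04 and 0.05 across the 14307 tested genes with a length. These points come from the same 3 libraries and genes are not independent replicates.

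The order was different between the 4 libraries that remain when Pax7-CreERT replicate 1 and control replicate 3 are set aside. Pax7-CreERT replicates 2 and 3 exceeded control replicates 1 and 2 by a median of 0.34 under 3 kb and 0.37 at 6 kb or more, where the median of all tested genes was 0.04 in both length classes. Spearman's rho with length was 0.22. The widest differences were in Mylk2 (0.61), Trdn (0.60), Actn3 (0.57), Xirp2 (0.56), Pvalb (0.54) and Ryr1 (0.54), and Tnnt3 (-0.01) and Eno3 were at the low end. The scatter plot of length shows both comparisons.

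**Figure D5:**
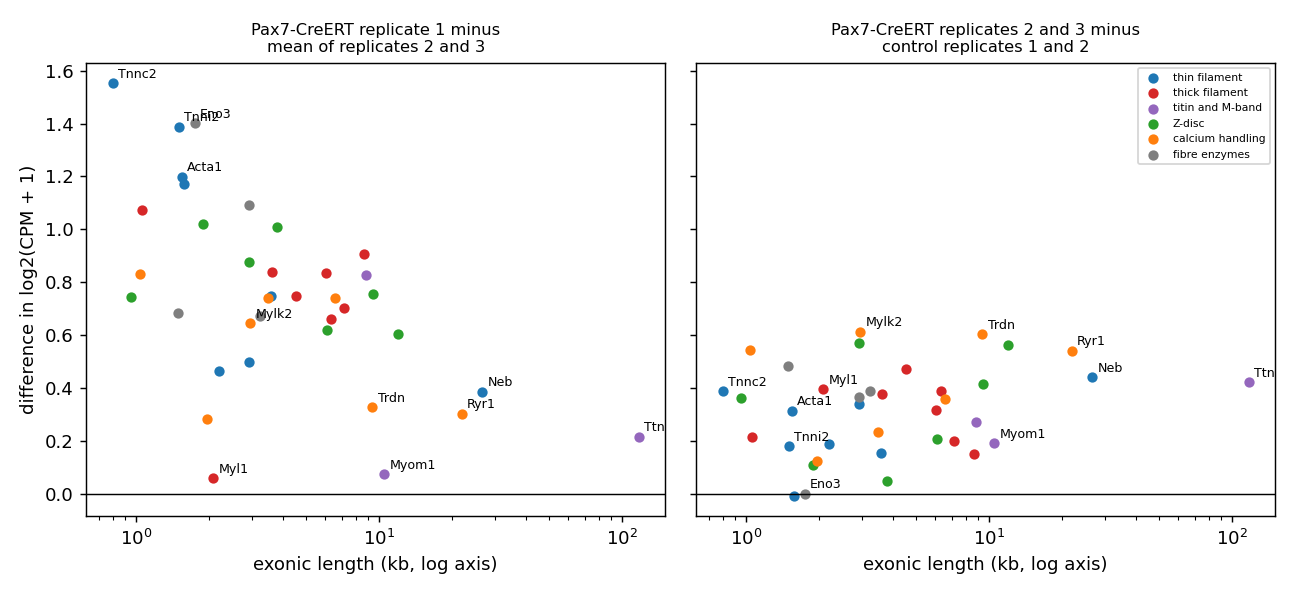
Difference in log2(CPM + 1) against exonic length in kb (log axis) for the 37 tested members, coloured by class, for Pax7-CreERT replicate 1 minus the mean of replicates 2 and 3 (left) and for Pax7-CreERT replicates 2 and 3 minus control replicates 1 and 2 (right). On the left short transcripts such as Tnnc2 (1.55) lie highest and Ttn (0.22) low; on the right the points lie between -0.01 and 0.61 with little relation to length.

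Other genes of the fibre were read from lists by the same fit, and single log2 fold changes are given ± SE. Some of these genes passed the filter only through the Pax7-CreERT libraries, with fewer than 3 controls at 1 CPM, and each list is therefore also counted without them. The counts of this and the later lists stand beside 68.0% of all tested genes with a log2 fold change above 0. At an unadjusted p under 0.05 in limma, 4.58% of all tested genes were higher and 0.942% lower. Of 27 tested further filament, Z-disc and M-band genes, 27 had a log2 fold change above 0 and 12 were higher at an unadjusted p under 0.05, with a median of 0.49 and 0 passing the adjustment. Without Csrp3, Myl2, Myl3 and Myoz3, which entered that way, 10 of 23 were higher at an unadjusted p under 0.05 and the median was 0.43. Tpm3 and Tpm1, tropomyosins that non-muscle cells also make, had means of 431 ± 41.7 CPM in Pax7-CreERT and 309 ± 55.6 CPM in control libraries and of 323 ± 27.1 CPM in Pax7-CreERT and 259.5 ± 37.3 CPM in control libraries (SD, n = 3 each). Xirp1, the other Xin repeat gene, measured 41.9, 42.1 and 40.9 CPM in Pax7-CreERT replicates 1, 2 and 3, against 28.2, 30.6 and 28.1 CPM in control replicates 1, 2 and 3. Its groups were far apart relative to their spread, with a log2 fold change of 0.51 (95% interval 0.22 to 0.80, SE 0.13, unadjusted p = 0.00273, adjusted p = 0.891) in limma.

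Of 20 tested further triad and calcium genes, 19 were above 0 and 7 higher at an unadjusted p under 0.05, with a median of 0.40. Without Stac3 and Sypl2, which entered through the Pax7-CreERT libraries, 6 of 18 were higher and the median was 0.34. Atp2a2 had means of 234 ± 11.3 CPM in Pax7-CreERT and 199 ± 5.71 CPM in control libraries, and Casq2 of 162 ± 23.9 CPM in Pax7-CreERT and 135 ± 24.5 CPM in control libraries. Srl, the luminal calcium-binding protein sarcalumenin, had means of 40.3 ± 4.98 CPM in Pax7-CreERT and 27.9 ± 3.32 CPM in control libraries (SD, n = 3 for each of these genes). Of 20 tested fibre enzymes outside the members, 15 were above 0, 5 below and 6 higher at an unadjusted p under 0.05, with a median of 0.29. Without Ampd1, Ckmt2 and Cox6a2, which entered likewise, 5 of 17 were higher and the median was 0.08, close to that of all tested genes. The glycolytic genes Pkm and Aldoa, which most cells express, had log2 fold changes of -0.05 ± 0.13 and -0.04 ± 0.16. Fbp2, muscle fructose bisphosphatase, measured 4.94, 3.22 and 2.85 CPM in the Pax7-CreERT libraries, against 1.504, 1.62 and 1.48 CPM in the controls, with a log2 fold change of 0.86 ± 0.26.

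Genes of sarcomere assembly and turnover numbered 14 tested, with 12 above 0, 5 higher at an unadjusted p under 0.05 and a median of 0.27. Without Kbtbd12, which entered likewise, 4 of 13 were higher and the median was 0.26. The co-chaperone gene Bag3 and the atrophy ubiquitin ligase gene Fbxo32 had log2 fold changes of 0.18 ± 0.21 and 0.29 ± 0.20. Klhl41, a stabiliser of nebulin, measured 21.4, 11.4 and 12.01 CPM in the Pax7-CreERT libraries, against 6.52, 9.16 and 5.18 CPM in the controls, with a log2 fold change of 0.98 ± 0.28. Among cardiac or developmental sarcomere genes 2 of 8 in the table passed the filter, Myh8 only through the Pax7-CreERT libraries. These were perinatal Myh8, at means of 3.62 ± 1.35 CPM in Pax7-CreERT and 1.86 ± 0.768 CPM in control libraries, and cardiac Myh6, at means of 1.63 ± 0.991 CPM in Pax7-CreERT and 1.17 ± 0.477 CPM in control libraries (SD, n = 3 each). Of 12 tested myonuclear and junction genes, 10 were above 0 and 2 higher at an unadjusted p under 0.05 (median 0.23, and 0.23 without Col22a1, which entered likewise). Prkar1a, Phldb2 and Nav3 had log2 fold changes of 0.15 ± 0.17, 0.23 ± 0.15 and 0.69 ± 0.22.

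Genes of the satellite cell and of early differentiation were set beside the members. Of 15 tested satellite cell markers, 13 were above 0, where 68.0% of all tested genes were. At an unadjusted p under 0.05 in limma, 1 marker was higher and 1 lower, where 4.58% and 0.942% of all tested genes were. The median of the markers was 0.08, where that of all tested genes was 0.09. The summed level of the markers was 1171 to 1292 CPM in Pax7-CreERT and 1118 to 1279.7 CPM in control libraries. Spry1, Sdc4 and Des held large parts of it, at means of 286, 184 and 203 CPM in Pax7-CreERT libraries. In control libraries their means were 325, 181 and 142 CPM. Pax7 and Myf5 had means of 16.7 and 14.8 CPM in Pax7-CreERT and 16.3 and 13.9 CPM in control libraries. The sum is therefore no measure of satellite cell number. Spry1, Sdc4 and Des had log2 fold changes of -0.17 ± 0.19, 0.02 ± 0.19 and 0.51 ± 0.15, and Des also belongs to smooth muscle. Of 13 tested myogenic regulators and fusion genes, 11 were above 0 and 2 higher at an unadjusted p under 0.05, with a median of 0.17 and a summed level of 1140.5 to 1283 CPM in Pax7-CreERT and 1040.0 to 1263 CPM in control libraries. Without Myf6, which entered through the Pax7-CreERT libraries, 10 of 12 were above 0. Mef2a and Mef2c had log2 fold changes of 0.08 ± 0.15 and 0.06 ± 0.14. These 2 genes held most of the summed level of the regulators. Their means were 424 and 332 CPM in Pax7-CreERT and 405 and 317 CPM in control libraries. Srf, the factor that reads the CArG box, measured 91.6, 98.6 and 89.4 CPM in the Pax7-CreERT libraries, against 68.2, 78.4 and 59.2 CPM in the controls, without overlap. Myog, the differentiation factor myogenin, was at 0.4205, 0.599 and 1.02 CPM in Pax7-CreERT libraries, against 0.167, 0.404 and 0.987 CPM in controls. Myod1 was 1 of the 2 regulators below 0, with a log2 fold change of -0.30 ± 0.24. Pax7-CreERT replicates 1, 2 and 3 held 3.26, 3.14 and 5.09 CPM of Myod1. Control replicates 1, 2 and 3 held 4.35, 4.85 and 5.43 CPM of Myod1, so the groups overlapped.

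Markers of other cell types moved over the libraries as well. The median centred log2 value of the 37 members was 0.86, 0.14 and 0.12 in the Pax7-CreERT libraries, against -0.25, -0.11 and -0.67 in the controls. The same value for 9 red cell genes was -0.58, -1.07 and 0.23 in the Pax7-CreERT libraries, against 0.19, -0.63 and 1.91 in the controls, with all 9 having the lower mean log2 value in Pax7-CreERT and summed levels of 16637 to 46813 CPM in Pax7-CreERT and 24972 to 123830.0 CPM in control libraries. For 10 fibro-adipogenic progenitor markers it was 0.95, 0.05 and -0.32 in the Pax7-CreERT libraries, against -0.43, -0.44 and 0.01 in the controls, with 8 of 10 above 0, 4 higher at an unadjusted p under 0.05 and summed levels of 3434 to 7191 CPM in Pax7-CreERT and 3500.1 to 5562 CPM in control libraries. Replicate 1 of Pax7-CreERT was thus the highest library for these markers as for the members, while control replicate 3 was not the lowest for them.

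All 13 smooth muscle markers were above 0, where 68.0% of all tested genes were. At an unadjusted p under 0.05 in limma, 6 of the markers were higher, where 4.58% of all tested genes were. The markers had a median of 0.39 and summed levels of 3176 to 3918 CPM in Pax7-CreERT and 2655 to 3055 CPM in control libraries. Their centred values were 0.06, 0.34 and 0.12 in the Pax7-CreERT libraries, against -0.16, -0.08 and -0.31 in the controls, so Pax7-CreERT replicate 2 was highest. Without Actg2, which entered through the Pax7-CreERT libraries, the median was 0.38. Of 9 tested leukocyte markers 4 were above 0, with summed levels of 452 to 633 CPM in Pax7-CreERT and 411 to 779 CPM in control libraries. Of 10 endothelial markers 6 were above 0, with summed levels of 7066 to 7828 CPM in Pax7-CreERT and 6314 to 9076 CPM in control libraries. Among these marker lists a value of 0 occurred for 1 leukocyte gene in Pax7-CreERT replicate 2, Cd3e, and for 1 satellite cell gene in control replicate 2, Chrdl2. The alternative runs included a fit on totals taken without haemoglobin genes, which rescales each library. Beyond that rescaling, the part of these cell types, of depth and of the red cell share in the members' differences was not tested.

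Single marker genes of these lists had the following values. Mylk, Tagln and Cnn1 of smooth muscle had log2 fold changes of 0.13 ± 0.15, 0.17 ± 0.16 and 0.78 ± 0.18. Hbb-bs and Hba-a2 of red cells had -0.89 ± 0.67 and -0.84 ± 0.54. Dcn, Gsn and Col1a1 of progenitors had -0.06 ± 0.32, 0.08 ± 0.32 and 1.497 ± 0.40. Pecam1 and Flt1 of endothelium had -0.13 ± 0.19 and -0.24 ± 0.23, and Lyz2 and S100a9 of leukocytes had 0.12 ± 0.29 and -0.44 ± 0.20. In limma 0 of the genes in any of these lists passed an adjusted p under 0.05.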

How the data were processed

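The 38 members, the gene lists and the isoform pairs were chosen with earlier results of these data known. The deposited values are CPM with 0.0001 added by the authors to every value, read from the column sums, and this constant was subtracted. Per the submitters' processing notes, Partek, DESeq2 and mm10 were used; their roles, the aligner and the counting rule, including strand, are not given in the sources used here. Depth was estimated from the step between low values. Of values up to 20 reads, 92.9% to 93.9% were whole within 0.05 read, so reads were not recovered and no count test was run. Of the members, 8 had fractional reads in at least 1 library (Acta1, Myh1, Myh7, Ttn, Mybpc2, Tpm2, Ryr1 and Ckm) and are less certain.

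The comparison used limma (version 3.58.1, R 4.3.3, mean-variance trend) on log2(CPM + 1). A gene entered if 3 or more of the 6 libraries reached 1 CPM, which left 14763 genes, with Benjamini-Hochberg adjustment over all of them. The constant understates fold changes of low genes. Single values were compared with exact 2-sided permutation tests. Every member is named. Per-library values go to isoform pairs, to 7 preset genes and to the 5 members with the smallest p, and to most others. Each other list gives its 2 most abundant genes and that with the smallest p, except 1 gene that is not reported here. Further genes (Pax7 and Ikbkb as label checks, Myf5, Myog and Myod1) were named outside that rule. Coordinates are those of the deposited table, with 1 subtracted from each end, after which 25 of the 38 member ends equalled RefSeq. Intervals of depth cover counting error only.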

Additional observations from a re-analysis of the deposited data

How the results depend on the processing

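No paired analysis was possible because the labels give no replicate numbers that pair the libraries. In every alternative run, 0 members passed an adjusted p under 0.05 in limma. Leaving out 1 library at a time gave 13 (without Pax7-CreERT replicate 1) to 30 members higher at an unadjusted p under 0.05, where 2.18% to 5.66% of all tested genes were. Medians ran from 0.49 to 0.89, and 22 to 30 members did not overlap, where 17.95% to 23.92% of all tested genes did not overlap in either direction (10.97% with all 6 libraries). The leave-outs gave 8 to 10 pairs with a higher fast to slow ratio. With both Pax7-CreERT replicate 1 and control replicate 3 left out, 13 members were higher at an unadjusted p under 0.05, where 3.26% of all tested genes were, the median was 0.36 and 5 pairs had a higher ratio; the cause was not tested. There Tnnt3 (-0.008) and Eno3 (-0.001) changed sign, and so did the ratios of troponin T (-0.20), myosin-binding protein C (-0.10), the regulatory light chain (-0.11) and calsequestrin (-0.079). Leaving out 1 library, the difference in ratio ran from -0.73 to 0.40 for the essential light chain, -0.065 to 0.117 for myosin-binding protein C and -0.001 to 0.30 for calsequestrin; with a pseudocount of 5 that of the essential light chain was 0.34. Median-ratio scaling and quantile normalization, which brought the median of all tested genes to 0.003 and 0.004, gave members' medians of 0.64 and 0.67. Of 552 single-gene values under the alternatives, 550 kept their direction. Depth limits the slow troponins, at 31 estimated reads or fewer.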
